A study of Homo sapiens with 4 samples.

Results

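The let-7 and miR-98 family is a group of mature miRNAs that share 1 seed, the bases at positions 2 to 8 from the 5′ end through which a miRNA mainly recognises its target transcripts. The members were the 5p strands of let-7a, let-7b, let-7c, let-7d, let-7e, let-7f, let-7g, let-7i and miR-98, taken by name. All 9 were found in both deposited tables, among 539 miRNAs that both tables listed, and all 9 had reads in all 4 libraries, so that none was lost to the filter on low values.

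Let-7 miRNAs are cut from hairpin precursors by Drosha and Dicer, and the 5p strand is the one that Argonaute mostly keeps. LIN28 proteins bind the precursors and block this maturation. Mature let-7 restrains RAS, MYC and HMGA2, is low in stem cells and rises as cells differentiate, and is generally regarded as a tumour suppressor in breast cancer. Let-7 miRNAs are also among the abundant miRNAs in extracellular vesicles (EVs), the membrane particles that cells release into their medium.

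Small RNA was sequenced from EVs of the human breast cancer line MDA-MB-231, an established triple-negative line, of genotype WT in all 4 libraries. The group 231 EV came from cells given EV-free DMEM, and the group 231 -G EV from cells given medium without glucose. Both were kept in their medium for 12 h, and the EVs were spun down at 110000 × g for 70 min. Each group had 2 libraries, and the replicate number also named the preparation. For replicate 1 the RNA was treated first to take off modifications that hinder ligation and reverse transcription, and for replicate 2 an NEBNext small RNA kit was used. This follows the labels, which also name a TruSeq kit for the RNA of replicate 2, whereas the methods of the study name the NEBNext kit without setting replicate 1 apart. Preparation, depth and any other difference between the replicates cannot be told apart. The labels do not say whether the medium without glucose also held EV-depleted serum, and they do not say whether the replicates were separate cultures, so that p-values measure the spread between these libraries only.

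Library totals were 18397 reads in 231 EV and 15597 reads in 231 -G EV for replicate 1, against 224966 and 170894 reads for replicate 2. Levels are given as the count divided by the library total times 1000000 (CPM, reads per 1000000). A count of 0 allows up to 3 reads, which came to 163 and 192 CPM in replicate 1 and to 13.3 and 17.6 CPM in replicate 2. Of 7 miRNAs listed as markers of MDA-MB-231, the summed share was 2.14% and 2.97% of the reads in replicate 1 and 32.5% and 26.3% in replicate 2, most of it miR-21-5p (356 of 393 and 430 of 463 reads in replicate 1, 68029 of 73195 and 39805 of 45010 in replicate 2). MiR-105-5p and miR-767-5p were at 0 in both libraries of replicate 1. MiR-31-5p, which is regarded as low in this line although the list holds it, had 4, 1, 3 and 1 reads. Of 7 epithelial miRNAs that are low in this line, the summed share ranged from 0.0205% to 0.583%. A single miRNA outside the family, hsa-miR-182-5p, took 51.0% of the reads of 231 EV replicate 1 but 2.73% of those of 231 -G EV replicate 1, and 0.254% of those of 231 EV replicate 2. Since a CPM value is a share of the total, every member of 231 EV replicate 1 was measured against a total that this miRNA filled by 51.0%. Ratios of pair 1 are therefore given both on all reads and without hsa-miR-182-5p. Bounds in brackets are 95% Wilson intervals for a share and 95% exact conditional intervals for a ratio. Reads copied by PCR were not marked by molecular identifiers, so intervals and limits cover counting error only.

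The mature sequences, from RefSeq with build GRCh38.p14, are shown because the members differ by so few bases that the assignment of a read to 1 of them rests on single positions. They are written 5′ to 3′ with the seed in capitals.
hsa-let-7a-5p: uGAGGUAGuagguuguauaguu
hsa-let-7b-5p: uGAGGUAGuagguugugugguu
hsa-let-7c-5p: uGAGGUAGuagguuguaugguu
hsa-let-7d-5p: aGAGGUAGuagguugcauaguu
hsa-let-7e-5p: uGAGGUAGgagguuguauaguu
hsa-let-7f-5p: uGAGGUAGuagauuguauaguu
hsa-let-7g-5p: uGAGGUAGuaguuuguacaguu
hsa-let-7i-5p: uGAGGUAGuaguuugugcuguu
hsa-miR-98-5p: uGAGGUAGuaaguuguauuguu

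All 9 were 22 nt long and held the same seed, which 11 of 2370 mature miRNAs of the reference table (0.464%) carried. The other two were hsa-miR-4458 and hsa-miR-4500, which were listed in the table of replicate 1 only. Hsa-miR-4458 had 0 reads in both libraries there, and hsa-miR-4500 had 0 reads in 231 EV and 1 in 231 -G EV, both within what a count of 0 allows. In that table, reads with this seed thus came almost wholly from the 9 members.

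Of the 36 pairs of members, 4 differed at 1 base. With positions counted from 1 at the 5′ end and the base of the first-named miRNA written first, let-7a and let-7c differed by A19G, let-7a and let-7e by U9G, let-7a and let-7f by G12A, and let-7b and let-7c by G17A. The most distant members, let-7d and let-7i, differed at 6 positions. A sequencing error or a trimmed 3′ end can move a read between such neighbours, and how the counting treated reads that match several members is not given in the sources used here, so the split among let-7a, let-7b, let-7c, let-7e and let-7f is uncertain. Let-7g and let-7i were at least 2 bases from every other member. Hsa-let-7d-5p was the only member that starts with A rather than U. GGAG, a motif described in miRNAs loaded into exosomes, was found in 1 of the 9 mature sequences, let-7e, and in 372 of the 2370 (15.7%), searched on the mature strand.

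The 9 mature miRNAs come from 12 hairpin genes on 8 chromosomes (GRCh38.p14). MIRLET7A1 (chr9:94175957-94176036), MIRLET7F1 (chr9:94176347-94176433) and MIRLET7D (chr9:94178834-94178920) lie in a row in an intron of the lincRNA AL158152.2, all on the plus strand. MIRLET7A2 (chr11:122146522-122146593, minus strand) lies in an intron of MIR100HG, and MIRLET7C (chr21:16539828-16539911, plus strand) in an intron of MIR99AHG, the host transcripts that also give miR-100 and miR-99a. MIRLET7E (chr19:51692786-51692864, plus strand) lies in an intron of the protein-coding gene SPACA6. MIRLET7A3 (chr22:46112749-46112822) and MIRLET7B (chr22:46113686-46113768), both on the plus strand, overlap an exon of the lincRNA MIRLET7BHG. MIRLET7F2 (chrX:53557192-53557274) and MIR98 (chrX:53556223-53556341) share an intron of HUWE1 on the minus strand. MIRLET7G (chr3:52268278-52268361, minus strand) lies in an intron of WDR82, and MIRLET7I (chr12:62603686-62603769, plus strand) in an intron of the lincRNA AC048341.1. Mature let-7a comes from 3 of these genes and mature let-7f from 2, and reads of the mature form do not tell the genes apart.

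As a whole, the family was a large part of the EV miRNA reads in every library. Its summed reads were 1044 in 231 EV and 1357 in 231 -G EV of replicate 1, and 36244 and 20281 in replicate 2. These were 5.67% (5.35 to 6.02) and 8.70% (8.27 to 9.15) of the reads in replicate 1, and 16.1% (15.96 to 16.26) and 11.9% (11.72 to 12.02) in replicate 2. On all reads both shares of replicate 2 were above both shares of replicate 1, and the media were ordered differently in the replicates. Both orders turned with the total. Without hsa-miR-182-5p the shares were 11.6% and 8.94% in replicate 1 and 16.2% and 11.9% in replicate 2, lower without glucose in each. When hsa-miR-451a was left out as well, they were 19.2% and 15.4% in replicate 1 against 16.2% and 11.9% in replicate 2, so that replicate 1 was then the higher in each medium.

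Let-7a, the form with the most hairpin genes, had 66 reads in 231 EV and 62 in 231 -G EV for replicate 1, and 18082 and 9218 for replicate 2, or 3588, 3975, 80377 and 53940 CPM. It was the second most abundant miRNA of 231 EV replicate 2 and the 14th of 231 EV replicate 1. Let-7f, which has a gene on chromosome 9 and another on X, had 390, 457, 5780 and 2511 reads in the same order, or 21199, 29301, 25693 and 14693 CPM. Its levels in the replicates overlapped, and the lowest was that of 231 -G EV replicate 2.

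Let-7i, the product of 1 hairpin on chromosome 12, had 227, 435, 4907 and 3278 reads, or 12339, 27890, 21812 and 19182 CPM. The lowest library was 231 EV replicate 1 and the highest was 231 -G EV of the same replicate. Let-7g, from the WDR82 intron, had 245, 292, 1120 and 972 reads, or 13317, 18721, 4979 and 5688 CPM. It was higher in both libraries of replicate 1, and on all reads the library without glucose was the higher in each replicate, an order that turned in replicate 1 without hsa-miR-182-5p (ratio 0.708).

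Let-7b had 49, 37, 4708 and 3358 reads, or 2663, 2372, 20928 and 19650 CPM. Let-7e had 2, 6, 774 and 411 reads, or 109, 385, 3441 and 2405 CPM. Both stood higher in replicate 2, and let-7e was under the 163 CPM that a count of 0 allows in 231 EV replicate 1. Let-7c, which is 1 base from let-7a and 1 base from let-7b, had 50, 47, 408 and 233 reads, or 2718, 3013, 1814 and 1363 CPM, and was lower in both libraries of replicate 2. Let-7d had 12, 17, 383 and 265 reads, or 652, 1090, 1702 and 1551 CPM. MiR-98, which shares the HUWE1 intron with a copy of let-7f, was the scarcest in every library but 1, with 3, 4, 82 and 35 reads, or 163, 256, 364 and 205 CPM. The exception was 231 EV replicate 1, where let-7e had 1 read fewer.

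**Figure D1:**
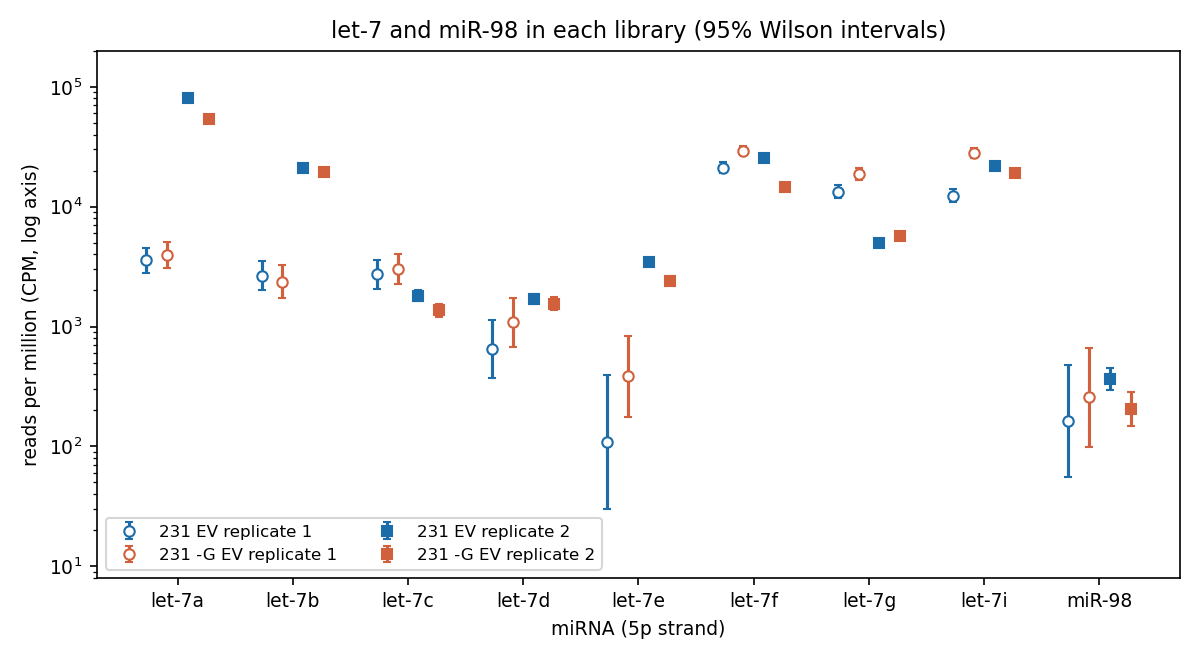
Level of each member in each of the 4 libraries, in CPM on a log axis, with 95% Wilson intervals from counting error. Open circles are replicate 1, filled squares replicate 2, blue is 231 EV and orange 231 -G EV. Let-7a runs from 3588 CPM to 80377 CPM across the replicates, whereas let-7f stays between 14693 and 29301 CPM.

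The order of the members changed between the replicates. In replicate 1 let-7f led in both media, in 231 EV with an interval that did not overlap that of let-7g, the next, and in 231 -G EV with one that overlapped that of let-7i. In replicate 2 let-7a led in both media with intervals clear of the next member. In 231 EV replicate 1 the intervals of let-7g and let-7i, of let-7a, let-7c and let-7b in turn, and of let-7d, miR-98 and let-7e in turn overlapped. In 231 -G EV replicate 1 all neighbours from let-7a down (let-7a, let-7c, let-7b, let-7d, let-7e, miR-98) overlapped. In replicate 2 let-7b and let-7i, and let-7c and let-7d, overlapped in both media. For each read of let-7f there were 0.169 and 0.136 reads of let-7a in replicate 1 and 3.13 and 3.67 in replicate 2. These 2 miRNAs differ by G12A alone.

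Shares within the family do not depend on reads of other miRNAs. Let-7a was 6.32% and 4.57% of the family's reads in replicate 1 but 49.9% and 45.5% in replicate 2. Let-7f was 37.4% and 33.7% in replicate 1 and 15.9% and 12.4% in replicate 2, and let-7g was 23.5% and 21.5% against 3.09% and 4.79%. Let-7b went the other way, with 4.69% and 2.73% in replicate 1 and 13.0% and 16.6% in replicate 2. When the 5 members joined by 1-base differences (let-7a, let-7b, let-7c, let-7e and let-7f) were pooled, they held 53.4% and 44.9% of the family in replicate 1 and 82.1% and 77.6% in replicate 2. Let-7f and let-7a both lie inside this pool, but the share of the pool itself was higher in replicate 2. In 231 EV let-7f stood at 21199 CPM in replicate 1 and 25693 CPM in replicate 2, and let-7a at 3588 and 80377 CPM. The part of read assignment in these differences was not tested.

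**Figure D2:**
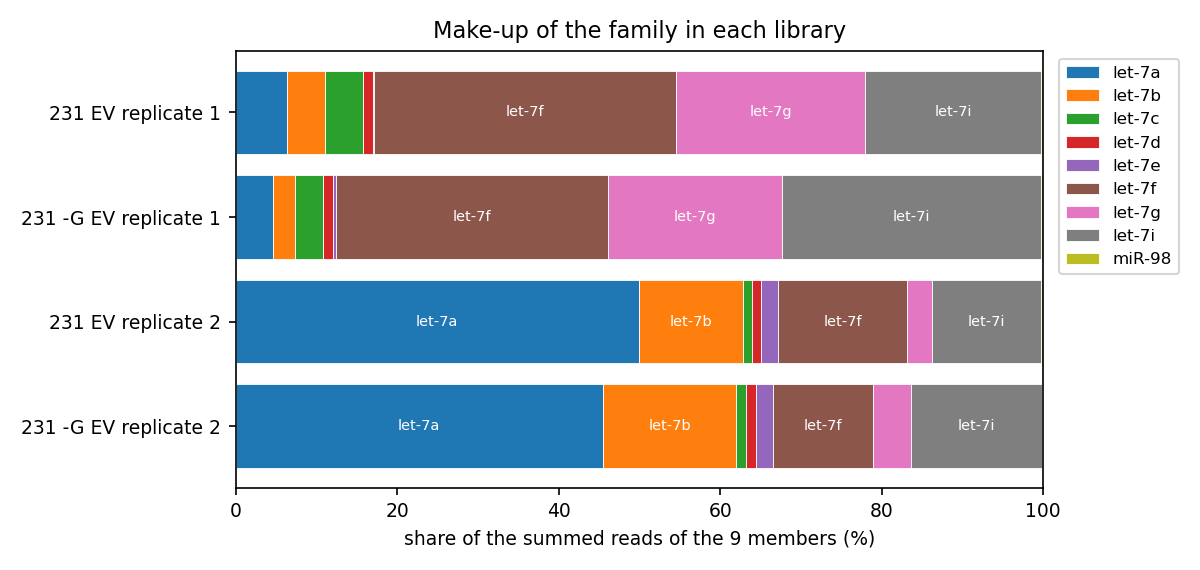
Each bar is 1 library, divided by the share of the family's summed reads, in percent, that each of the 9 members held. Let-7f, let-7g and let-7i fill most of the bars of replicate 1, and let-7a alone fills 49.9% and 45.5% of the bars of replicate 2.

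To ask whether glucose starvation changed the family in EVs, 231 -G EV was compared with 231 EV over all 4 libraries by the quasi-likelihood test of edgeR, blocked on the replicate number. Of the 9 members, 0 were called (more than a change of 1 in either direction on the log2 scale, at an adjusted p under 0.05) and 0 had an unadjusted p under 0.05. The background was the same: 0 of 384 miRNAs tested were called (0%), 5 had an unadjusted p under 0.05, and DESeq2 and limma called 0 members as well. Log2 fold changes of the members ran from -0.31 (SE 1.20) for miR-98 to 0.49 (SE 0.86) for let-7i, and their median was -0.13, beside 0.20 over all 384. All had an adjusted p of 0.999 by edgeR. With standard errors between 0.84 and 1.20, changes of the size of these estimates were not detectable in this design. With 2 libraries against 2 and the pairing ignored, an exact permutation test could not go below p = 0.333. Permuting within the pairs would set a higher floor still.

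On all reads, the only totals on which this was counted, the levels of the media overlapped for every member. In 0 of 9 members were both 231 -G EV libraries above both 231 EV libraries, against 9.11% of the 384 miRNAs, and in 0 of 9 were both below, against 7.29%. Where the replicates stood apart, the media had to overlap, so the count cannot speak on glucose there. That held for 4 members with replicate 2 wholly above replicate 1 and 2 wholly below, beside 46.1% and 20.6% of all miRNAs.

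Within pair 1, the 2 libraries of replicate 1, 8 of 9 members had a ratio above 1 on all reads and 3 were called higher in 231 -G EV. Within a pair, a call needs an adjusted p under 0.05 in Fisher's exact test on reads, adjusted over all miRNAs with a read in the pair, with no minimum fold. The 3 were let-7i (ratio of 231 -G EV to 231 EV 2.26, 1.92 to 2.67, adjusted p = 2.96e-23), let-7f (1.38, 1.20 to 1.59, adjusted p = 4.12e-05) and let-7g (1.41, 1.18 to 1.67, adjusted p = 0.00126). These 3 of 9 compare with 7.91% of the 670 miRNAs tested that were called higher, and 0 of 9 called lower compare with 1.79%. Such tests compare 2 libraries, not the media. The family's share was 1.53 times that of 231 EV (1.41 to 1.66), and the median log2 ratio was 0.49 over the members and 0.24 over the 267 miRNAs compared.

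This direction turned with the total. With the reads of hsa-miR-182-5p taken out of both totals, the family ratio of pair 1 was 0.773 (0.712 to 0.838), 0 members were called higher and 4 were called lower, beside 2.69% and 5.08% of the 669 miRNAs then tested. The 4 were let-7a (ratio 0.558, 0.388 to 0.802), let-7b (0.449, 0.285 to 0.702), let-7f (0.697, 0.607 to 0.799) and let-7g (0.708, 0.596 to 0.843). Let-7i alone of the abundant members then had a ratio above 1, at 1.14 (0.968 to 1.34), and was not called. The median log2 ratio became -0.50 over the members and -0.75 over the 267 miRNAs, so that the whole distribution moved with the total.

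Within pair 2, the deeper pair, 8 of 9 members were lower in 231 -G EV and 7 were called lower, where 8.74% of the 618 miRNAs tested were called lower. Calls with no minimum fold depend on depth, which limits this comparison. The members had 82 to 18082 reads in 231 EV of this pair, whereas every miRNA with any read in the pair was tested. Let-7a had a ratio of 0.671 (0.654 to 0.688, adjusted p = 7.60e-235 by Fisher's exact test) and let-7f had 0.572 (0.545 to 0.599, adjusted p = 4.09e-129). MiR-98 had the lowest ratio, 0.562, on 82 and 35 reads (0.367 to 0.844). Let-7e (0.699), let-7c (0.752), let-7i (0.879) and let-7b (0.939, adjusted p = 0.0280) were also called. Let-7g was the only member called higher, at 1.14 (1.05 to 1.25, adjusted p = 0.0161), beside 9.87% of all miRNAs called higher. Let-7d, at 0.911 (0.776 to 1.07), was called in neither direction. The family ratio was 0.737 (0.724 to 0.749), and it was 0.737 without hsa-miR-182-5p too. Without let-7a, which held 49.9% of the family's reads in 231 EV of this pair, the ratio of the other 8 was 0.802 (0.783 to 0.821). The median log2 ratio was -0.41 over the members and 0.07 over 405 miRNAs.

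**Figure D3:**
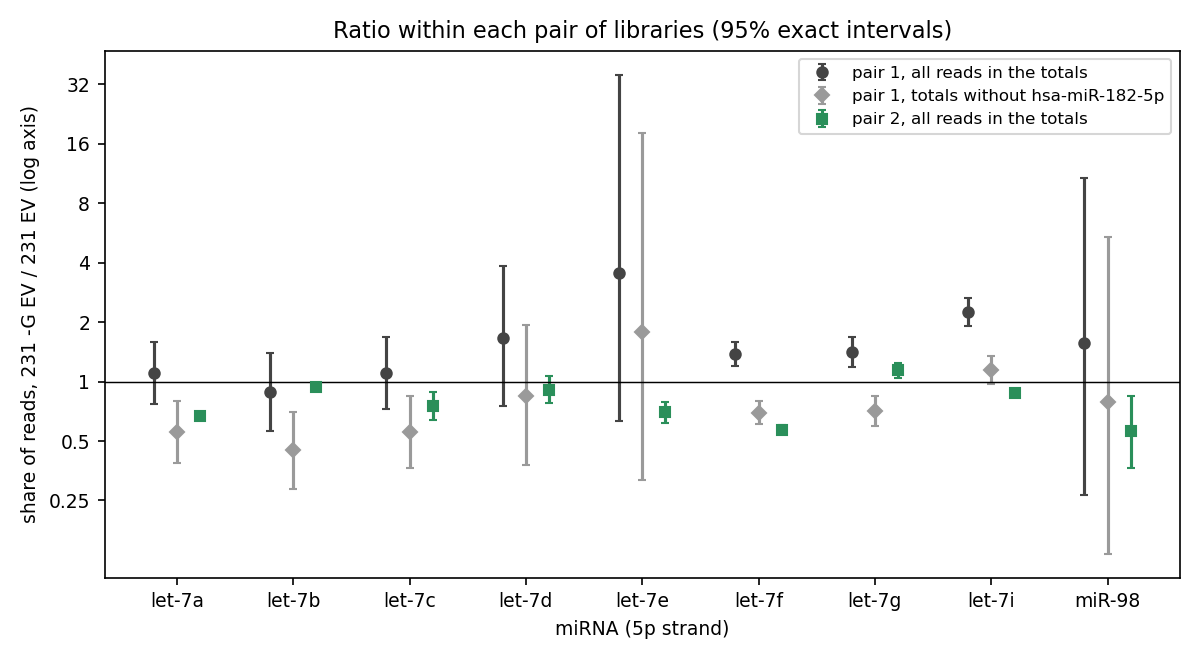
Ratio of each member's share of reads in 231 -G EV to that in 231 EV, on a log axis, with 95% exact conditional intervals. Dark circles are pair 1 on all reads, grey diamonds pair 1 on totals that omit hsa-miR-182-5p, and green squares pair 2. On all reads 8 of 9 members of pair 1 lie above 1, and without hsa-miR-182-5p 2 of 9 do, while 1 of 9 lies above 1 in pair 2.

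As a share of the family, which neither hsa-miR-182-5p nor any other outside miRNA can move, let-7i was higher in 231 -G EV in both pairs. It went from 21.7% to 32.1% of the family in pair 1, a ratio of 1.47 (1.25 to 1.74), and from 13.5% to 16.2% in pair 2, a ratio of 1.19 (1.14 to 1.25). With let-7a left out of the family, let-7i went from 23.2% to 33.6% in pair 1. In pair 2 the gain was then smaller, from 27.0% (26.4 to 27.7) to 29.6% (28.8 to 30.5). No other member had intervals off 1 on the same side in both pairs. Let-7b was lower in pair 1 (0.581, 0.369 to 0.909) and higher in pair 2 (1.27, 1.22 to 1.33). In pair 2 let-7g (1.55, 1.42 to 1.69) and let-7d (1.24, 1.05 to 1.45) also gained share, although with let-7a left out of the family the ratio of let-7d was 1.14 (0.968 to 1.33), and let-7a (0.911, 0.888 to 0.934) and let-7f (0.776, 0.741 to 0.814) lost share. In pair 1 the ratios of let-7g (0.917, 0.771 to 1.09), let-7a (0.723, 0.503 to 1.04) and let-7f (0.902, 0.786 to 1.03) had intervals that held 1. These ratios are a description of 2 pairs of libraries, with no test over the media.

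Larger differences lay between the replicates. In the same edgeR fit, 3 of 9 members were called higher in replicate 2 and 0 were called lower, beside 9.64% and 7.55% of the 384 miRNAs. Let-7a was higher by 4.12 on the log2 scale (SE 0.94, adjusted p = 0.000317 by edgeR), let-7e by 3.66 (SE 1.14, adjusted p = 0.0123) and let-7b by 3.01 (SE 0.92, adjusted p = 0.0113). Without hsa-miR-182-5p and hsa-miR-451a the 3 were still called, but by less, at 2.84 (SE 0.47), 2.40 (SE 0.90) and 1.72 (SE 0.56). On CPM, let-7a was 22.4 times (17.6 to 28.98) higher in 231 EV and 13.6 times (10.6 to 17.7) higher in 231 -G EV, and let-7b was 7.86 and 8.28 times higher. The ratio of let-7e was 31.6 in 231 EV, on 2 reads in replicate 1 (8.73 to 262), and 6.25 in 231 -G EV. These CPM ratios were on all reads and are smaller on totals without hsa-miR-182-5p and hsa-miR-451a. Those totals were 29.6% (231 EV) and 56.5% (231 -G EV) of all reads in replicate 1, and 99.6% and 99.7% in replicate 2.

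The other 6 members were not called on all reads. Let-7g had a log2 fold change of -1.57 (SE 0.87, adjusted p = 0.241 by edgeR), but was called lower by DESeq2 (-1.86, adjusted p = 0.0178) and by edgeR without hsa-miR-182-5p (-2.10, adjusted p = 0.00511), where 15.5% of the 220 miRNAs to which DESeq2 gave an adjusted p and 10.97% of the 383 tested by edgeR were called lower. Without hsa-miR-182-5p and hsa-miR-451a, edgeR called let-7g (-2.85), let-7c (-2.15) and let-7f (-1.65) lower. In that setting 13.9% of the 382 miRNAs tested were called lower, and the median log2 fold change over all of them was -0.47. On all reads the log2 fold change was -0.86 for let-7c, -0.36 for let-7f, 0.14 for let-7i, 0.41 for miR-98 and 0.94 for let-7d. The median over the members was 0.41, and over all 384 miRNAs 0.75. The ratio of replicate 2 to replicate 1 in 231 EV was 1.21 (1.09 to 1.35) for let-7f and 2.61 (1.48 to 5.10) for let-7d. In 231 -G EV the ratio was 0.501 (0.454 to 0.555) for let-7f and 1.42 (0.872 to 2.48) for let-7d. Let-7g was lower in replicate 2 in both media, with ratios of 0.374 (0.325 to 0.431) and 0.304 (0.266 to 0.347). Let-7i was higher in replicate 2 in 231 EV (1.77, 1.55 to 2.03) and lower in 231 -G EV (0.688, 0.622 to 0.762). These ratios were on all reads. Without hsa-miR-182-5p, 49.0% of the reads of 231 EV replicate 1 remained, and 99.7% of those of 231 EV replicate 2. On those totals the 231 EV ratios of let-7f and let-7i fall under 1. Both libraries of replicate 2 were above both of replicate 1 for 4 of 9 members (let-7a, let-7b, let-7d and let-7e), beside 46.1% of all miRNAs, and below them for 2 (let-7c and let-7g), beside 20.6%. Limma on log2(CPM + 1) called 0 of the 9, with an unadjusted p under 0.05 for 3 of them and a lowest adjusted p of 0.0964, but it called 0 of all 384 miRNAs as well, of which 145 had an unadjusted p under 0.05. Leaving out either library of replicate 2, with no term for the medium, also ended the 3 calls, with 0 members called each time and lowest adjusted p of 0.0518 and 0.0881 by edgeR. Calls over all miRNAs fell too, to 4.59% higher and 4.24% lower of 283 without 231 -G EV, and to 5.45% and 5.09% of 275 without 231 EV. In these settings the folds stayed about as large. Let-7a was higher by 4.12 with limma on the log2 scale. It was higher by 4.41 without 231 -G EV of replicate 2 and by 3.83 without 231 EV of replicate 2. In the same order let-7b was higher by 3.01, 3.05 and 2.96, and let-7e by 3.81, 3.82 and 3.30. The folds were smaller without hsa-miR-182-5p and hsa-miR-451a, at 2.84 for let-7a, 1.72 for let-7b and 2.40 for let-7e.

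**Figure D4:**
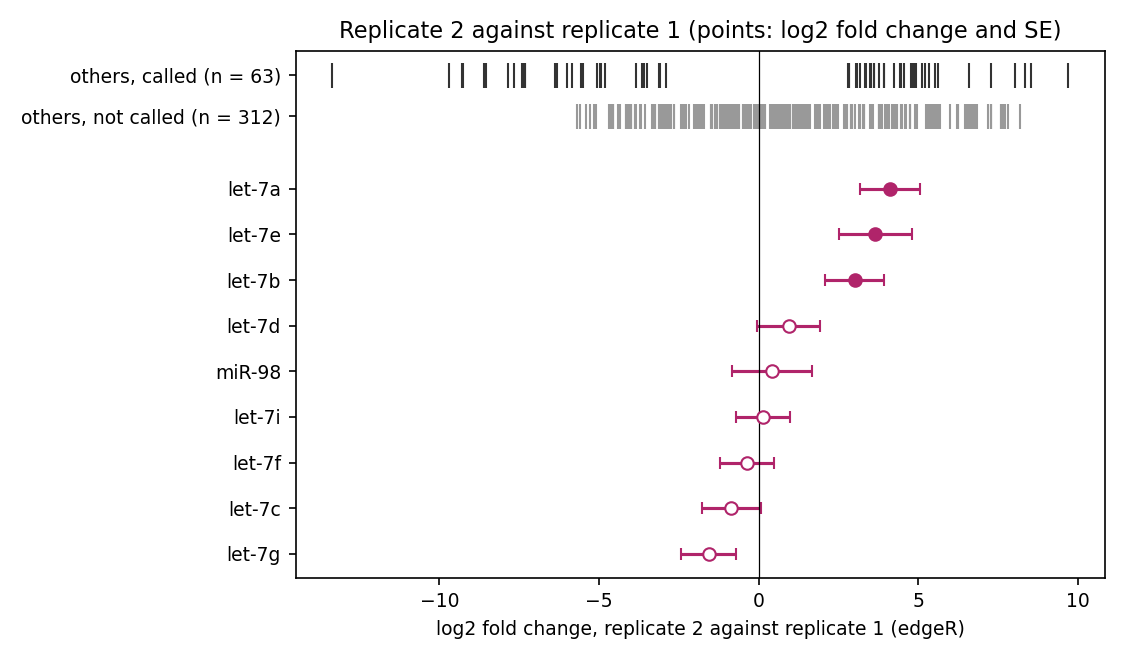
Log2 fold change of each member in replicate 2 against replicate 1 with its SE, from edgeR over all 4 libraries. Filled points were called and open points were not, and the ticks at the top are the other miRNAs tested. Let-7a, let-7e and let-7b stand at 4.12, 3.66 and 3.01, and the other members lie between -1.57 and 0.94.

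The 3p strands of the same hairpins, which are mostly discarded, were rare. Of 11, 4 were listed in the table of replicate 1 and 11 in that of replicate 2. They had 1 and 4 reads in replicate 1, too few for a ratio, and 81 and 90 in replicate 2, or 0.0957% and 0.294% of all let-7 and miR-98 reads of replicate 1 and 0.223% and 0.442% of those of replicate 2. In pair 2 the summed 3p reads had a ratio of 1.46 (1.07 to 2.00), opposite to that of the 5p strands. Let-7d-3p, with 0, 3, 22 and 35 reads, was called higher in pair 2 (ratio 2.09, 1.19 to 3.75, adjusted p = 0.0387 by Fisher's exact test). This was 1 of the 10 strands with reads there, close to the 9.87% called higher among all miRNAs of the pair. At these counts no order among the other 3p strands could be read.

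Some let-7 genes are transcribed together with miR-99, miR-100 and miR-125 genes, whose products have seeds of their own. MiR-99a, from the transcript of let-7c, had 52, 283, 167 and 82 reads, a ratio of 6.42 (4.76 to 8.80) in pair 1 on all reads, 3.24 (2.40 to 4.44) without hsa-miR-182-5p, and 0.646 (0.490 to 0.847) in pair 2, whereas let-7c itself had 1.11 (0.728 to 1.69), 0.559 (0.367 to 0.849) and 0.752 (0.637 to 0.885). The 5 such miRNAs together had 84 and 339 reads in pair 1, mostly miR-99a, a ratio of 4.76 (3.74 to 6.12) on all reads and 2.40 (1.88 to 3.08) without hsa-miR-182-5p. Without miR-99a these were 2.06 (1.31 to 3.29) and 1.04 (0.662 to 1.66). In pair 2 the ratio was 0.735 (0.720 to 0.750), and 5 of 5 were called lower, beside 8.74% of all miRNAs. Between the replicates, 3 of these 5 were called higher in replicate 2 (miR-100, miR-125a and miR-125b), beside 9.64% of all miRNAs, and 1 was called lower, miR-99a, beside 7.55%.

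Of all miRNAs outside the family with reads in every library, the 3 whose levels followed the summed family most closely over the 4 libraries were hsa-miR-26a-5p, hsa-miR-455-5p and hsa-miR-92a-3p. The Euclidean distances of their centred log2(CPM + 1) values from those of the family were 0.380, 0.451 and 0.482, among 145 compared. Among the members let-7d lay at 0.236, and the others ran from 0.624 for miR-98 to 3.17 for let-7a. Likeness to the sum is thus not likeness to most single members. Hsa-miR-26a-5p had 56, 103, 2303 and 1156 reads, and hsa-miR-455-5p had 1, 1, 41 and 21, so that its likeness rests on single reads in replicate 1.

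Markers of other sources also differed between the libraries. The 5 blood or serum miRNAs (miR-451a, miR-486-5p, miR-144-3p, miR-16-5p and miR-122-5p) summed to 20.5% and 43.3% of the reads in replicate 1 and to 7.39% and 11.2% in replicate 2. In replicate 2 miR-16-5p gave 15834 of these 16622 reads in 231 EV and 18955 of 19161 in 231 -G EV. The sums of replicate 2 thus rest on this 1 miRNA, to which the paper also normalised miRNA levels. In pair 1 their summed ratio was 2.11 (2.03 to 2.20) on all reads and 1.07 (1.02 to 1.11) without hsa-miR-182-5p. On all reads 3 of these 5 were called higher in 231 -G EV and 0 lower, beside 7.91% and 1.79% of all miRNAs. Without hsa-miR-182-5p 2 were called higher and 1 lower, beside 2.69% and 5.08%. MiR-451a, the red cell miRNA, had 3577 and 6364 reads there, a ratio of 2.10 (2.01 to 2.19) on all reads and 1.06 (1.015 to 1.102) without hsa-miR-182-5p. In pair 2, 4 of the 5 were called lower, beside 8.74% of all miRNAs, with 295 and 68 reads of miR-451a, and miR-16-5p, with 15834 and 18955 reads, was called higher. Of the epithelial list the ratio in pair 1, on 21 and 91 reads, was 5.11 (3.15 to 8.65) on all reads and 2.58 (1.59 to 4.36) without hsa-miR-182-5p, and miR-200a-3p and miR-200b-3p gave 29 and 42 of the 91 reads. In pair 2 it was 0.236 (0.160 to 0.340) on 195 and 35 reads, of which miR-205-5p gave 109 and 3, and without miR-205-5p it was 0.490 (0.316 to 0.743). Their part in the ratios of the let-7 members was not tested.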

How the data were processed

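The authors deposited whole-number read counts per mature miRNA, next to CPM values for replicate 1 and TPM values for replicate 2. Both deposited scaled columns were checked and equalled the count over the library total times 1000000, so the text calls both CPM. The submitters' processing notes name FastQC, cutadapt, Bowtie, Bowtie2, StringTie, edgeR and the build hg38, whereas the methods name SeqPrep, Sickle, HISAT, the FASTX toolkit, StringTie and Bowtie2, the last 2 in common with the notes, and which tools made which table is not given in the sources used here. The methods also describe removal of other small RNA classes and matching to miRBase. How reads matching several members were counted is not given in the sources used here.

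The members and lists were chosen with earlier results of these data known. Counts were fitted with edgeR 4.0.16 (R 4.3.3) on deposited totals, over miRNAs in both tables with reads in at least 2 libraries, with replicate as a block, and adjusted by Benjamini-Hochberg. All tests were two-sided. Alternatives used TMM, DESeq2 1.42.0, limma 3.58.1 (pseudocount 1), other filters, totals and library sets. Reads within a pair were compared with SciPy 1.17.1. The scripts of both tests were checked with simulated counts. Replicate numbers pair the libraries because the labels give each number its own preparation. After group means were subtracted, libraries with the same number correlated at 0.586 over 384 miRNAs.

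Named besides the 9 members were, by rule, their 3p strands, miRNAs transcribed with let-7 genes, miRNAs with the same seed, and the 3 of most similar level. Mature sequences and hairpin positions came from RefSeq tables, where 9 of 9 names matched, and gene overlaps came from the annotation of the same build.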

Additional observations from a re-analysis of the deposited data

Results flagged for a closer look

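The family and 2 of its members moved in opposite directions in the pairs of libraries, with both exact intervals off 1. The ratio of 231 -G EV to 231 EV was 1.53 in pair 1 and 0.737 in pair 2 for the summed family, 1.38 and 0.572 for let-7f, and 2.26 and 0.879 for let-7i. The difference between the pairs was not tested, since each pair is 1 library of each medium. When the totals omitted hsa-miR-182-5p, the ratios of pair 1 were 0.773 for the family, 0.697 for let-7f and 1.14 for let-7i. Groups of 2 libraries allowed no test for a library standing apart.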

How the results depend on the processing

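No alternative called a member between the media, and without the replicate block 0 members were called as well. The signs of these uncalled changes depended on the setting. With all 4 libraries, let-7d turned to -0.17 with TMM, -0.0097 with DESeq2, -0.18 without hsa-miR-182-5p and -0.16 without hsa-miR-182-5p and hsa-miR-451a. In the same settings but DESeq2, let-7e turned to -0.15, -0.14 and -0.12, and let-7g to -0.12, -0.15 and -0.12. Let-7i turned to -0.00053 without hsa-miR-182-5p. Without the replicate block let-7e turned to -0.35. The median log2 fold change of all miRNAs moved from 0.20 to -0.14 with TMM and to -0.13 without hsa-miR-182-5p. Leaving out a replicate or a library gave log2 ranges of -3.40 to 3.01 for let-7a, -2.31 to 2.05 for let-7b, -0.73 to 0.41 for let-7c, -0.36 to 1.02 for let-7d, -2.22 to 3.67 for let-7e, -0.81 to 0.47 for let-7f, -0.68 to 1.29 for let-7g, -0.19 to 1.18 for let-7i and -0.83 to 0.65 for miR-98. Single libraries were left out in fits with no block, where the remaining library of a group is assumed to vary like the others.

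Between the replicates, the count of 3 members called (beside 9.64% of all miRNAs called higher and 7.55% lower) became 0 with limma (beside 0% of all), 4 (3 higher, 1 lower) with DESeq2 (15.9% and 15.5% of the 220 miRNAs with an adjusted p, 164 of 384 having none) and without hsa-miR-182-5p (10.7% and 10.97%), and 6 (3 higher, 3 lower) without hsa-miR-182-5p and hsa-miR-451a (6.81% and 13.9%), and 0 to 3 on leaving out a library. Signs turned for let-7i with DESeq2 (-0.15), for let-7i (-0.39) and miR-98 (-0.12) without hsa-miR-182-5p, and for let-7d (-0.34), let-7i (-1.15) and miR-98 (-0.87) without both. Leaving out a library gave -0.78 to 0.025 for let-7f, -0.44 to 0.73 for let-7i and -0.024 to 0.81 for miR-98.

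In pair 1 the family ratio turned to 0.773 without hsa-miR-182-5p and 0.803 without hsa-miR-182-5p and hsa-miR-451a, with 0 members called higher and 4 called lower in both settings. The change follows from the totals themselves, since hsa-miR-182-5p holds 51.0% of 1 library. The 5 members 1 base apart had a pooled within-family ratio of 0.841 in pair 1 and 0.945 in pair 2, on the other side of 1 from the own ratios of let-7e in pair 1 and of let-7b and let-7c in pair 2 (2.31, 1.27 and 1.02). Without let-7a in the family, the ratio of let-7c in pair 2 turned to 0.938, the interval of let-7d there came to hold 1 and that of let-7e (0.872) no longer held it. Chosen after seeing the data, the other miRNA lists were also taken on these totals, where the MDA-MB-231 list turned in pair 1 from 1.39 to 0.700 and 0.728. Replicate 1 held 2 to 6 reads of let-7e and 3 to 4 of miR-98, which limits what can be read from both there.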
